A study of Nomascus leucogenys with 9 samples.

Results

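Transcript levels of 10 genes of the BCL2 family were described in lymphoblastoid cell lines of the northern white-cheeked gibbon, Nomascus leucogenys. The genes were BCL2, BCL2L1, MCL1, BCL2A1, BCL2L11, BAX, BAK1, BID, BBC3 and PMAIP1. They were found by their human-format Ensembl gene identifiers among the 15356 rows of the authors' normalized gene table. The look-up did not use their values, but the list was chosen with earlier results of these data known. Of the 10 identifiers, 0 were absent, and all 10 passed the filter on low rows described below. The study asked how LAVA, a retrotransposon particular to gibbons, has been taken up in the regulation of the gibbon genome. RNA-seq had been run on EBV-transformed lymphocyte lines, which are lymphocytes immortalised in culture with Epstein-Barr virus, from 9 different animals. All 9 lines carry that virus, no treatment or contrast is given, and each line was measured once, so the lines formed 1 group of 9 biological replicates. Line 1 is Asia, line 2 Bobby, line 3 China, line 4 Khao, line 5 Melouprey, line 6 Nancy, line 7 Phyllis, line 8 Ricky and line 9 Vok. Animal, culture and transformation cannot be told apart within a line, and with 1 library per line a difference between 2 lines has no error of its own.

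BCL2 family proteins decide whether the outer mitochondrial membrane is opened in apoptosis. Survival proteins (BCL2, BCL-XL, MCL1 and BCL2A1) hold the effectors BAX and BAK in check, and BH3-only proteins (BIM, BID, PUMA and NOXA) either bind the survival proteins or activate the effectors. In B cells latently infected with Epstein-Barr virus, the viral protein LMP1 is known to raise several survival genes, and proteins of the EBNA3 family are known to silence the gene for BIM. Most of these proteins are also controlled after transcription, which transcript levels do not measure.

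The deposited values are on a log scale and were read as log2 units. Raised to base 2, each column summed to between 13728358 and 14059842, and shares of those sums are given in parts per 1000000 (ppm). Rows averaging 1 ppm or more, 12590 in number, are called kept rows. Values are not per unit of transcript length, so levels are compared between lines for 1 gene and not between genes. Sequencing depth is unknown, and a transformation that narrows differences may have been applied before deposit. The table pairs no identifier with a symbol, so B cell markers, markers of other cell types and further genes of the death pathway could not be matched, and the labelled cell type was not checked. Lines 9 and 1 lay farthest from the row medians over all kept rows, with median absolute deviations of 0.21 and 0.20 log2 units, against 0.07 to 0.14 in the other lines.

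By SD, BAK1 was the steadiest gene of the family, while BCL2 and the BIM gene BCL2L11 differed most between lines. The SD over the 9 lines was 0.10 log2 units for BAK1, above 5.79% of kept rows. It was 0.63 for BCL2, above 93.4% of kept rows, and 0.55 for BCL2L11, above 90.7% of kept rows. The other effector, BAX, had an SD of 0.18, above 35.3% of kept rows and close to MCL1 (0.20) and PMAIP1 (0.22). Its range of 0.69 log2 units was wider than that of MCL1 (0.67) or PMAIP1 (0.59). Survival genes had a median SD of 0.34 and BH3-only genes one of 0.36, against 0.22 over all kept rows. Of the 10 genes, 4 spanned at least 2-fold from the lowest to the highest line (BCL2, BCL2L11, BBC3 and BCL2L1), where 26.4% of kept rows did. At least 1.5-fold was spanned by 9 of the 10, all but BAK1, where 60.5% of kept rows did. A span of at least 4-fold was reached by 0 of the 10, against 6.18% of kept rows. Against rows of their own level class (10 to 100 ppm, 6429 rows with a median SD of 0.21), BCL2 and BCL2L11 lay above 93.7% and 91.3%, and BAK1 above 6.502%. Dixon's gap criterion found an outlying line in 0 of the 10 genes, against 10.1% of kept rows. These shares are descriptions of 10 chosen rows, and no test of the family against other genes was made.

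**Figure D1:**
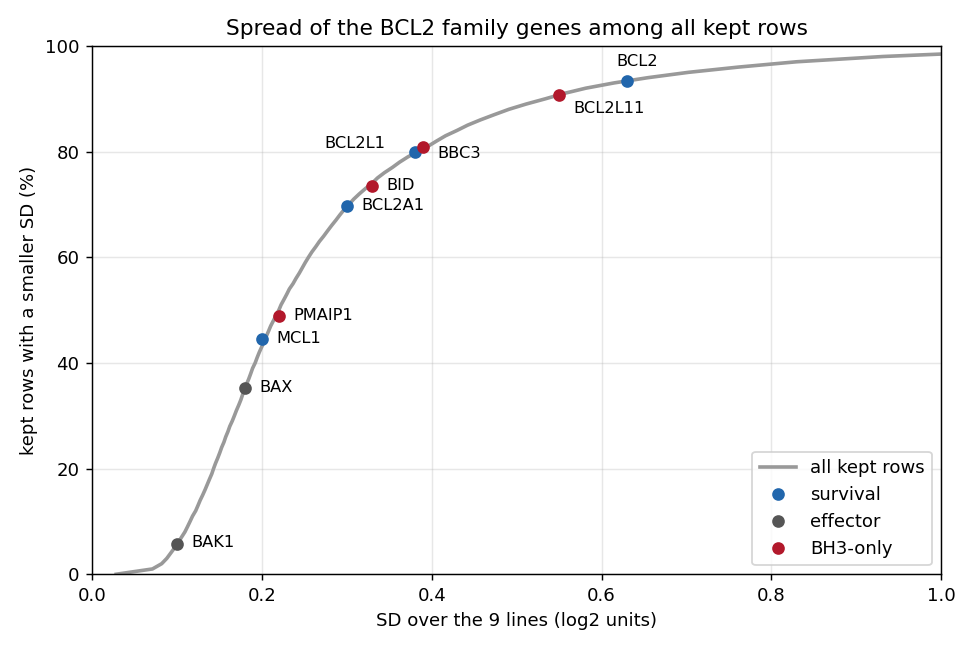
Each point is 1 gene, placed by its SD over the 9 lines (x axis, log2 units) and the percentage of kept rows with a smaller SD (y axis); the grey curve is the same for all kept rows up to an SD of 1 log2 unit, and colours mark survival, effector and BH3-only genes. BAK1 sits at the narrow end with an SD of 0.10, and BCL2 is the widest at 0.63.

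Among the survival genes, BCL2 (ENSG00000171791), the founding member of the family, had the widest range. Line 1 stood at 9.56 log2 units, line 2 at 10.70, line 3 at 9.89, line 4 at 11.03, line 5 at 9.30, line 6 at 10.40, line 7 at 9.91, line 8 at 10.69 and line 9 at 9.36. Lines 2, 4, 6 and 8 were highest, with a gap of 0.48 log2 units to the other lines. The range was 0.63 log2 units within these lines and 0.61 within the others. Both ranges were wider than the gap, so the lines did not form clearly separate sets. The mean was 10.09 ± 0.63 log2 units (SD, n = 9), and line 4 stood 3.31-fold above line 5. As a share of the linear total, BCL2 averaged 85.2 ± 36.9 ppm (SD, n = 9), from 45.5 to 149.5 ppm.

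BCL2L1 (ENSG00000171552) encodes BCL-XL, and its splice forms are not separated by a gene-level row. In log2 units, line 1 stood at 10.42, line 2 at 9.90, line 3 at 10.18, line 4 at 9.89, line 5 at 9.74, line 6 at 10.86, line 7 at 9.77, line 8 at 10.19 and line 9 at 10.54. Lines 6, 9 and 1 were highest, and lines 2 and 4, which were high in BCL2, lay below the BCL2L1 median. The mean was 10.17 ± 0.38 log2 units (SD, n = 9) and the range 2.17-fold. Line 6 was set apart by 0.32 log2 units, and without it the range was 0.80 log2 units, below 2-fold.

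BCL2A1 (ENSG00000140379), an NF-kB target in lymphocytes, peaked where BCL2L1 did. It stood at 12.48 log2 units in line 6 and 12.15 in line 1, and between 11.54 (line 5) and 12.01 (line 8) in the other lines. The mean was 11.89 ± 0.30 log2 units (SD, n = 9), or 277.4 ± 61.5 ppm. The range was 1.92-fold with line 6 and 0.61 log2 units without it.

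MCL1 (ENSG00000143384), whose protein turns over quickly, was the survival gene with the least spread. It ran from 12.78 log2 units in line 3 to 13.45 in line 4, with a median of 13.13 and a mean of 13.16 ± 0.20 (SD, n = 9). Its share of the linear total was 662.1 ± 89.5 ppm. Line 3 was the low end by a gap of 0.21 log2 units, and without it the range fell from 0.67 to 0.47 log2 units. The SD of MCL1 lay above 44.5% of kept rows, near the middle of the table.

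The effectors BAX and BAK1, which form the pores of the outer mitochondrial membrane, had the smallest SDs of the family, BAX by a small margin. BAX (ENSG00000087088) stood between 10.07 and 10.22 log2 units in 7 of the 9 lines. The exceptions were line 7 at 10.46 and line 9 at 9.77, so the full range of 1.61-fold came from 2 lines. The middle 5 values spanned 0.06 log2 units, and the mean was 10.16 ± 0.18 (SD, n = 9). Without line 9 the range was 0.39 log2 units, and without line 7 it was 0.45, against 0.69 with all lines.

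BAK1 (ENSG00000030110) ran from 9.75 log2 units in line 8 to 10.07 in line 4, a 1.25-fold range, with a mean of 9.86 ± 0.10 (SD, n = 9). Only 5.79% of kept rows had a smaller SD. Line 4 made up much of even that range, which was 0.19 log2 units without it. The small SD is a value on the deposited scale, whose transformation is unknown.

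Among the BH3-only genes, BCL2L11 (ENSG00000153094), which encodes BIM, an activator of BAX and BAK that all survival proteins bind, varied most. Line 1 had 7.75 log2 units, with line 2 at 8.71, line 3 at 7.58, line 4 at 9.16, line 5 at 8.60, line 6 at 8.75, line 7 at 7.89, line 8 at 8.28 and line 9 at 7.83. Lines 2, 4, 5 and 6 were high, lines 1, 3, 7 and 9 low, and line 8 lay between them. The mean was 8.28 ± 0.55 log2 units (SD, n = 9), and line 4 stood 3.001-fold above line 3. In ppm the mean was 23.8 ± 9.16 (SD, n = 9).

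BBC3 (ENSG00000105327) encodes PUMA, a target of p53. By line, in log2 units, line 1 stood at 9.31, line 2 at 9.32, line 3 at 9.22, line 4 at 9.57, line 5 at 8.63, line 6 at 9.43, line 7 at 8.99, line 8 at 9.39 and line 9 at 8.39. Lines 9 and 5 were low by 0.92 and 0.68 log2 units below the median, and 6 lines lay within 0.35 log2 units of each other. The mean was 9.14 ± 0.39 log2 units (SD, n = 9) and the range 2.27-fold. Without line 9 the range was 0.94 log2 units, below 2-fold.

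BID (ENSG00000015475), whose protein links death receptors to mitochondria once caspase-8 has cut it, had its widest gap below the 4 highest lines. These were line 1 at 11.92 log2 units, line 6 at 11.90, and lines 3 and 9 at 11.84. The lower lines were line 2 at 11.07, line 7 at 11.29, line 4 at 11.30, line 8 at 11.33 and line 5 at 11.47. The gap was 0.36 log2 units, against a range of 0.08 within the higher lines and 0.41 within the lower lines. The range within the lower lines was wider than the gap, so the lines did not form clearly separate sets. The mean was 11.55 ± 0.33 log2 units (SD, n = 9) and the range 1.81-fold.

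PMAIP1 (ENSG00000141682) encodes NOXA, a p53 target that binds MCL1 and BCL2A1. It ran from 8.09 log2 units in line 7 to 8.68 in line 4, with a median of 8.29 and a mean of 8.36 ± 0.22 (SD, n = 9). Lines 4, 9 and 1 were high, at 8.68, 8.63 and 8.55, and the next line stood at 8.38. The range of 1.51-fold made it the BH3-only gene with the least spread.

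**Figure D2:**
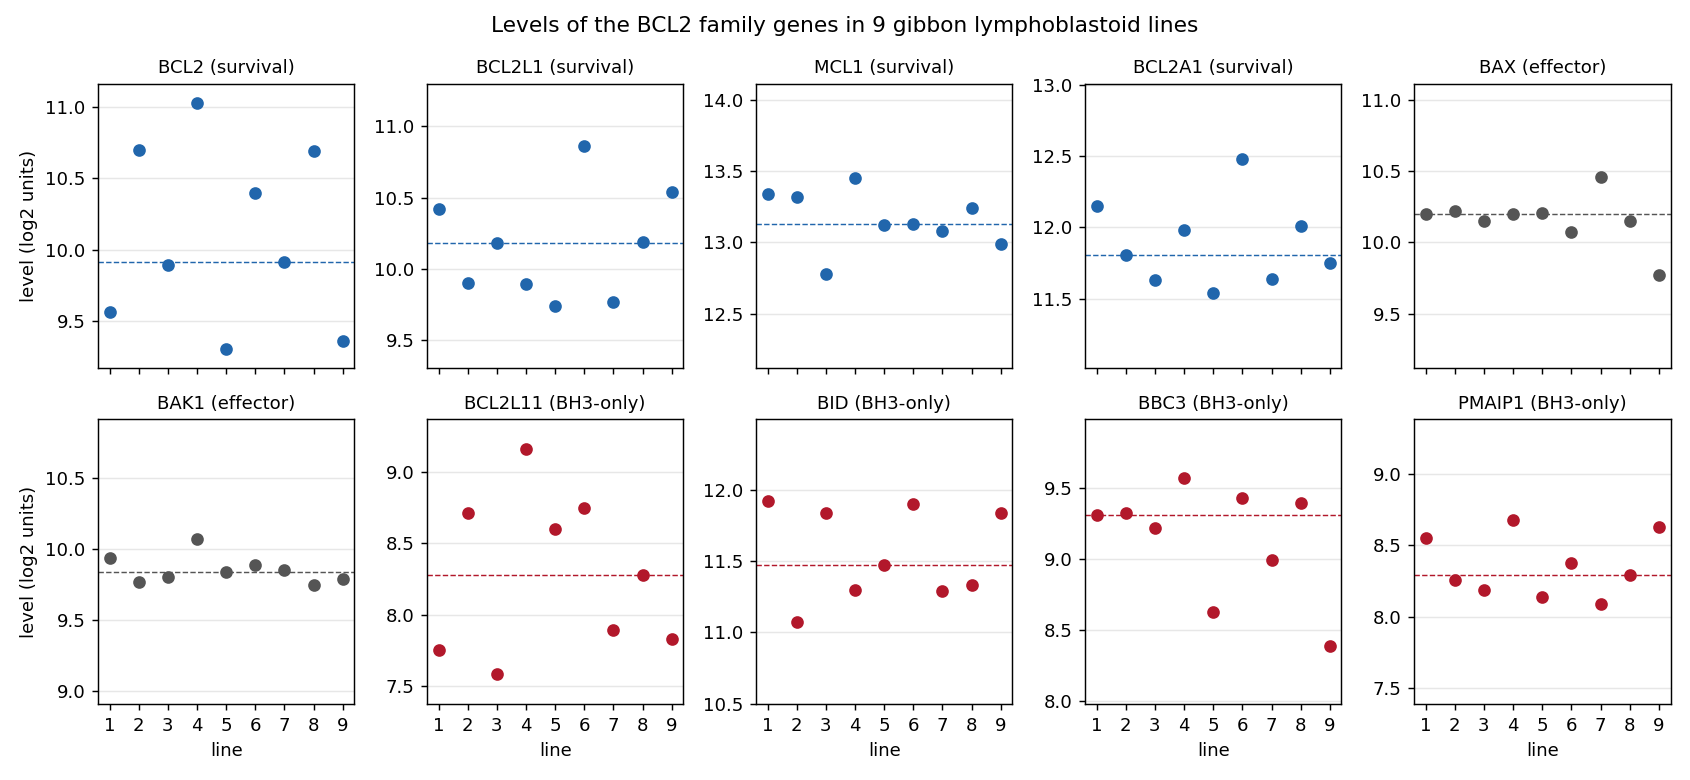
Each panel is 1 gene, with the line number on the x axis and the level in log2 units on the y axis; every y axis spans 2 log2 units, points are single libraries and the dashed line is the median of the 9 lines. BCL2 and BCL2L11 fill most of their panels, while BAK1 stays between 9.75 and 10.07 log2 units.

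Line 4 held the highest level of 6 of the 10 genes, on both sides of the family. These were BCL2 and MCL1 among the survival genes, the effector BAK1, and the BH3-only genes BCL2L11, BBC3 and PMAIP1. Over all kept rows, line 4 was the highest line in 11.3%. The other highest values fell in line 6 (BCL2L1 and BCL2A1), line 7 (BAX) and line 1 (BID). The lowest values fell in line 5 for BCL2, BCL2L1 and BCL2A1, in line 3 for MCL1 and BCL2L11, in line 9 for BAX and BBC3, and in lines 2, 7 and 8 for BID, PMAIP1 and BAK1.

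Line 6 lay above the median of 8 of the 10 genes, where it lay above the median of 41.2% of kept rows. Line 3 lay below the median of 8 of the 10, against 45.8% of kept rows. Averaged over the 4 survival genes, the deviation from the median was 0.46 log2 units in line 6 and 0.33 in line 4, and it was lowest in line 5, at -0.33. Averaged over the 4 BH3-only genes it was 0.34 in line 4 and 0.28 in line 6, and lowest in line 7, at -0.27. These means hide members that went the other way. In line 4, BCL2 stood 1.12 and BCL2L11 0.88 log2 units above their medians, while BCL2L1 deviated by -0.29 and BID by -0.17. The genes within a class share their libraries and are not replicates of a line.

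Differences between 2 genes inside a line are untouched by any rescaling of whole columns, and here only their change between lines is read. BCL2 minus BCL2L1 gave 1.14 log2 units for line 4, 0.80 for line 2, 0.49 for line 8 and 0.15 for line 7. It gave -0.29 for line 3, -0.44 for line 5, -0.46 for line 6, -0.86 for line 1 and -1.18 for line 9. The span of 2.32 log2 units, or 4.99-fold, was wider than the range of either gene, since lines 4 and 9 were high in one gene and below the median in the other. The difference of BCL2 minus BCL2L11, a survival gene and a BH3-only gene that its protein binds, ranged from 0.70 log2 units in line 5 to 2.41 in line 8. Line 5 was alone at the low end, because it had the lowest BCL2 with a BCL2L11 level above the median, and the next line, line 9, stood at 1.53. The difference of BAX minus BAK1 spanned only 0.63 log2 units, from -0.03 in line 9 to 0.60 in line 7.

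Across the 9 lines, 45 pairs of the 10 genes were correlated, and 0 passed the test after adjustment over all kept rows. A pair was called where limma gave a Benjamini-Hochberg adjusted p under 0.05 in both fits, 1 with each gene as the covariate. At an unadjusted level, 4 pairs (8.89%) had an exact permutation p of r under 0.05. For all rows, limma listed between 3.17% (BAK1) and 24.9% (BBC3) at an unadjusted p under 0.05. The share of pairs lies between these values. They come from a different test and lie far apart, so they cannot show whether that share is unusual. In 33 pairs (73.3%) r was positive and in 12 negative, with a median of 0.31, where between 43.4% and 54.3% of all rows had a positive r with a given gene. Genes of 1 library share its scaling and its RNA, so part of a correlation can come from the library. All kept rows share these too, and this part was not tested beyond centring the columns on their median.

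BCL2 and BBC3, a survival gene and a BH3-only gene, had the highest r of the 45 pairs. The value was r = 0.81 (exact permutation p = 0.00514, n = 9), with rho = 0.85 (exact permutation p = 0.00607). Lines 5 and 9 were low in both genes and line 4 was highest in both. Without lines 2 and 4, the farthest from the BCL2 median, r was 0.77, and it lay between 0.76 and 0.92 when any 1 line was left out. With BBC3 as the covariate, BCL2 was higher by 1.30 ± 0.31 log2 units (SE) per log2 unit of BBC3, with limma's adjusted p at 0.0362. With BCL2 as the covariate, the adjusted p for BBC3 was 0.189, so the pair was not called. The first of these adjusted p values was 0.187 without line 9 and ranged from 0.0122 to 0.187 over all settings, and it was above 0.05 when line 2, 4, 5, 6, 7, 8 or 9 was left out. An r at least as high was found with BCL2 for 1.53% of kept rows and with BBC3 for 4.06%.

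BCL2L1 and BID followed, with r = 0.78 (exact permutation p = 0.0158, n = 9) and rho = 0.70 (exact permutation p = 0.0433). The 4 lines with the highest BID had BCL2L1 between 10.18 and 10.86 log2 units. The other 5 had it between 9.74 and 10.19, so the BCL2L1 ranges overlapped by lines 3 and 8. With the gap in BID, r here joins a difference between higher and lower lines with any relation inside each group. These parts were not separated. Without lines 5 and 6, r was 0.83. The lower of limma's adjusted p values for the pair was 0.156.

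BCL2L1 was correlated with BCL2A1 at r = 0.72 (exact permutation p = 0.0252, n = 9; rho = 0.68, exact permutation p = 0.0503). This depended on single lines. Line 6 was highest in both survival genes, and r was 0.45 without it and 0.29 without lines 5 and 6. In the other direction, r was 0.86 without line 9. BCL2L1 and BAX ran in opposite directions, at r = -0.67 (exact permutation p = 0.0463, n = 9; rho = -0.78, exact permutation p = 0.0172). That r was -0.80 without lines 5 and 6, and at its weakest -0.59, without line 7, the line with the highest BAX. The lower of limma's adjusted p values was 0.275 for BCL2L1 with BCL2A1 and 0.482 for BCL2L1 with BAX.

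BCL2L11 was correlated with BCL2 at r = 0.65 (exact permutation p = 0.063, n = 9; rho = 0.62, exact permutation p = 0.0857) and with MCL1 at r = 0.65 (exact permutation p = 0.0585, n = 9; rho = 0.57, exact permutation p = 0.121). Line 4 was the highest line in all 3 genes, and without it the values were 0.47 and 0.48. In the other direction, r with BCL2 was 0.87 without line 5, and r with MCL1 was 0.87 without line 1. Without lines 2 and 4 the r with BCL2 was 0.31, and without lines 3 and 4 the r with MCL1 was 0.17. The lower of limma's adjusted p values was 0.292 for the first pair and 0.467 for the other. The remaining pair with an absolute r of at least 0.6 was BCL2A1 and BBC3. It had r = 0.61 (exact permutation p = 0.0826, n = 9; rho = 0.72, exact permutation p = 0.0369), and r was 0.51 without line 5. The lower of limma's adjusted p values for it was 0.2. The effectors BAX and BAK1 had r = 0.18 (exact permutation p = 0.594, n = 9; rho = 0.15, exact permutation p = 0.708).

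**Figure D3:**
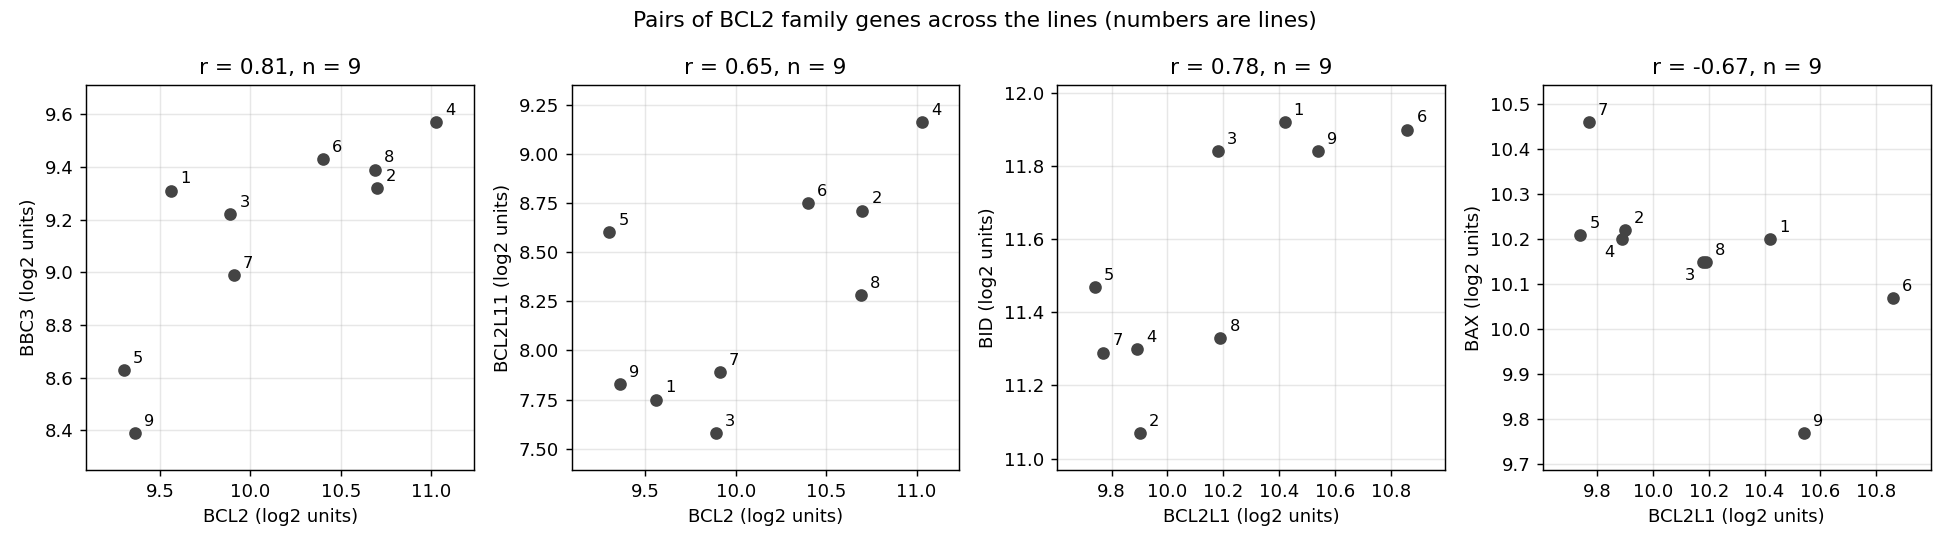
Each panel plots 2 genes against each other in log2 units, with 1 numbered point per line and Pearson r above it. Lines 5 and 9 are low and line 4 high in BCL2 and BBC3, lines 1, 3, 6 and 9 are the highest in BID, and line 4 is the top point for BCL2 and BCL2L11.

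**Figure D4:**
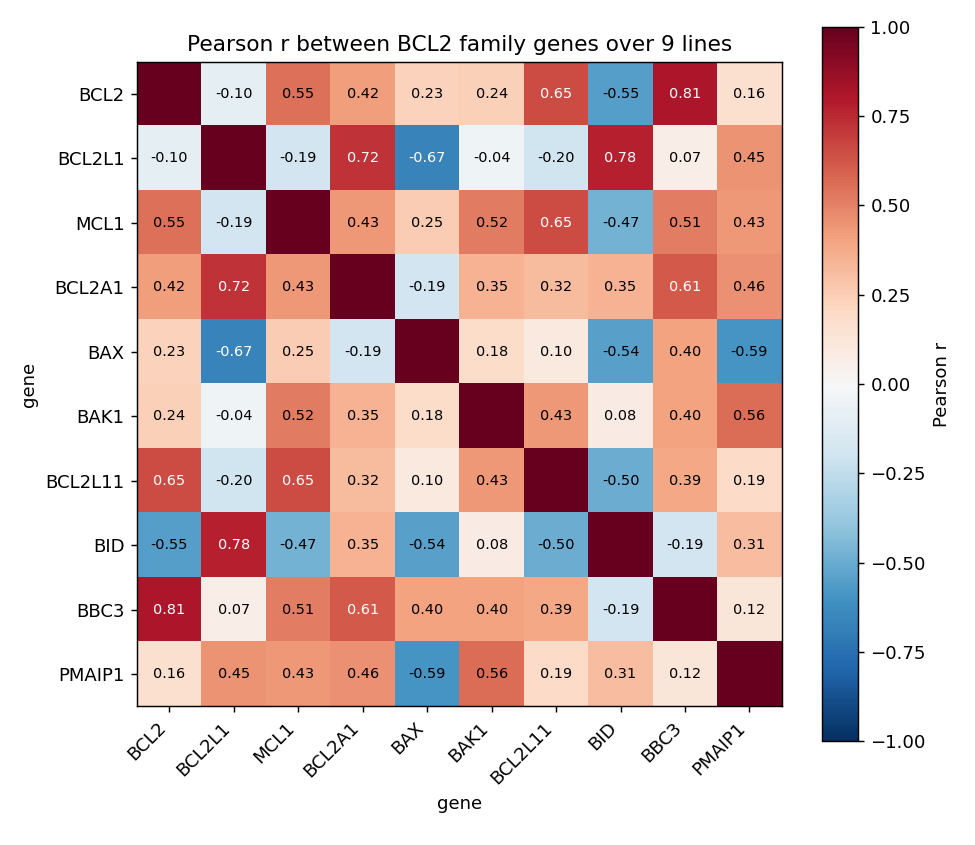
Pearson r over the 9 lines for each of the 45 pairs of genes, with genes on both axes and colour from blue (-1) to red (1). The highest value is 0.81, for BCL2 and BBC3, and the lowest is -0.67, for BCL2L1 and BAX.

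Each gene was then used as a covariate for every other kept row, 12589 rows per fit, and only BBC3 and BID gave any call. With BBC3, limma called 405 rows that were higher with it (3.22% of those tested) and 605 that were lower with it (4.81%), 1010 in all. None of these calls was made without line 9, the line with the lowest BBC3. Its omission left 0 calls with BBC3 (1799 rows at an unadjusted p under 0.05, smallest adjusted p 0.133), while the omission of any other single line left between 380 and 1296. Line 9 was the highest or lowest line in 896 of the 1010 rows (88.7%), against 38.8% of all kept rows. The rows were chosen for a strong r with BBC3 over all 9 lines, and line 9 had the lowest BBC3. The share of 88.7% therefore follows in part from the choice of rows and is not separate evidence on line 9. In the same chosen rows, the median absolute r was 0.88 with line 9 and 0.81 without it. All 1010 kept their sign without line 9, as they did without each other line. These values also follow in part from the choice of rows, so they cannot show whether the relation rests on line 9. Line 9 also lay far from the medians over the whole table, and its part in these calls beyond this was not tested.

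With BID, limma called 21 rows that were higher with it (0.167%) and 13 that were lower (0.103%). The count of 34 was 0 without line 1, 2, 4 or 8, 1 without line 7, 4 without line 3, 19 without line 5, 58 without line 9 and 108 without line 6, so it is a value of these 9 lines together. The other 8 genes gave 0 calls each (0%). At an unadjusted p under 0.05, limma listed 3130 rows with BBC3 (24.9%) and 1776 with BID (14.1%). It listed 1900 with BCL2 (15.1%), more than with BID, 1637 with BCL2A1 (13%), 1369 with BCL2L11 (10.9%) and 1292 with BCL2L1 (10.3%). With the other 4 genes it listed 896 for BAX (7.12%), 815 for MCL1 (6.47%), 467 for PMAIP1 (3.71%) and 399 for BAK1 (3.17%). No other tool was run. BCL2L1 gave 28 calls without line 9, and BCL2, BCL2L11 and PMAIP1 gave 0 when any 1 line was left out.

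**Figure D5:**
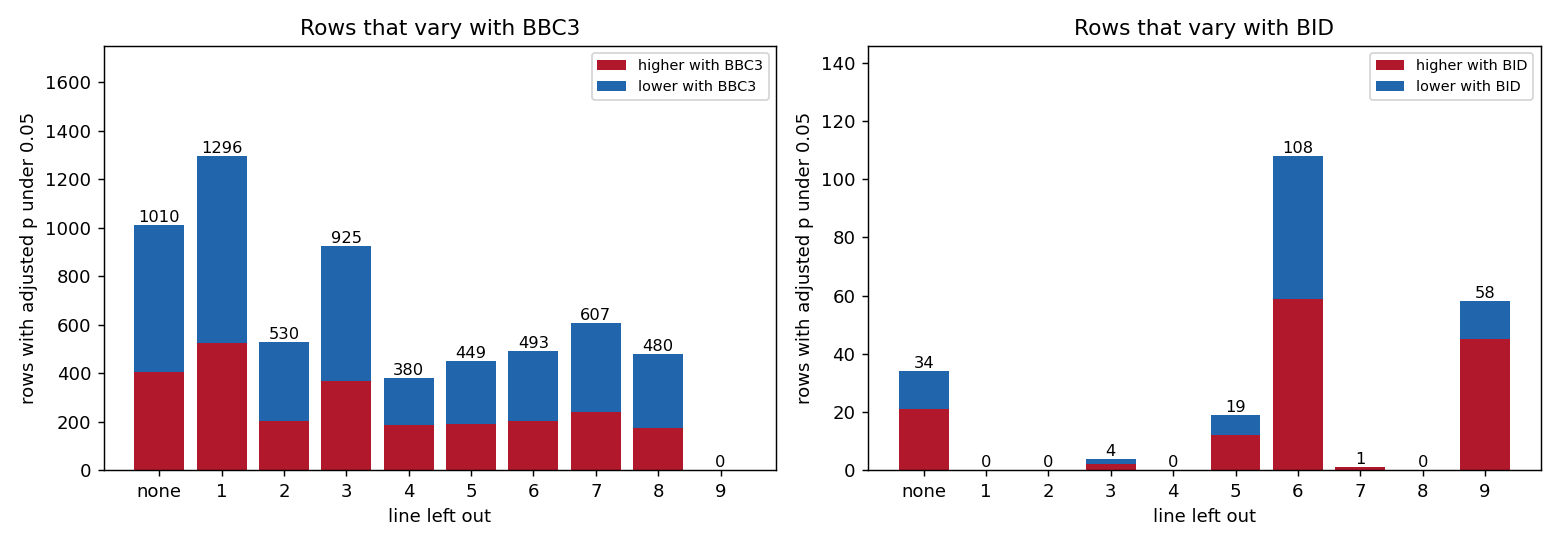
Bars count the rows whose level varied with BBC3 (left) or BID (right) at a limma adjusted p under 0.05 (y axis), with all 9 lines or with the line on the x axis left out; red rows were higher and blue rows lower with the gene. The BBC3 count of 1010 is 0 without line 9, and the BID count of 34 ranges from 0 to 108.

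BCL2 had the widest range, and the kept rows whose pattern over the 9 lines was most like it or most opposed to it are given by identifier, since the table holds no symbols. ENSG00000118518 and ENSG00000151694 each had r = 0.96 with BCL2. The first ran from 8.63 log2 units in line 5 to 9.26 in line 4, and the other from 9.66 in line 9 to 10.24 in line 4. ENSG00000084774 had r = -0.97, with 11.73 log2 units in line 5 and 10.97 in line 4, and ENSG00000167508 had r = -0.96. All 4 rows moved by less than BCL2, with slopes between -0.37 and 0.34 log2 units per log2 unit of BCL2. They were picked as the extremes of 12589 rows, and limma's adjusted p was 0.168 for the first 3 and 0.21 for the last, so none passed.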

How the data were processed

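RNA-seq of 9 lymphoblastoid lines was used, 1 library per line. The authors deposited 1 table of normalized gene counts on a log scale, treated here as log2 values. The base of the logarithm, the normalization, the genome build, the counting and the use of strand are not given in the sources at hand. Per the submitters' processing notes, Trimmomatic, STAR, edgeR and DESeq2 were used, with no role or version. Per the labels' protocols, RNA was extracted with RNeasy kits and libraries followed a TruSeq protocol. The last header names are separated by a space, so the header was split at white space, and 0 per-sample columns were left unused.

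No pseudocount was added. Rows averaging 1 ppm or more of the summed linear values were kept (12590 of 15356). limma 3.58.1 in R 4.3.3 was fitted to all kept rows with the level of 1 gene as the covariate, with a trended prior, Benjamini-Hochberg adjustment over all rows of the fit and a threshold of 0.05. The fit was tested on simulated rows that followed the level of BCL2. Their slopes were steeper than those of the real rows most like or opposed to BCL2, so the simulation does not cover weaker relations. Exact two-sided permutation tests ran over all 362880 orders of the lines. A line was checked as outlying by Dixon's gap criterion (0.493 for 9 values). The other settings tried were columns centred on their median, a pseudocount of 1 on the linear scale, no filter, a filter at 5 ppm, a prior without trend, the covariate as ranks, and leaving out each line.

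The genes and lists were chosen with earlier results of these data known. By rule, all 10 genes are named, with the 4 rows most like or opposed to the gene of widest range. Their symbols come from the rule. The RefSeq table of assembly Asia_NLE_v1 holds all 10 symbols as protein-coding genes but no Ensembl identifiers, and 0 identifiers matched, so pathway and cell marker lists were not used and no coordinates are given.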

Additional observations from a re-analysis of the deposited data

How the results depend on the processing

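The 7 pairs with an absolute r of at least 0.6 kept their direction in every setting, and the number of called pairs was 0 in all, also when 1 line was left out (0 to 0). The number of genes spanning at least 2-fold was 4 in the other scalings, where 25.9% to 26.3% of kept rows did. With a line left out it was 3 to 4, against 22.1% to 26.1% of kept rows. The 1010 rows varying with BBC3 became 284 with BBC3 as ranks, and 0 to 1296 with a line left out. The 34 rows varying with BID became 56 with a filter at 5 ppm, 19 with BID as ranks, and 0 to 108 with a line left out. BCL2A1, with 0 such rows, gave 1 with a filter at 5 ppm and 0 to 2 with a line left out. With a line left out, the counts were 0 to 28 for BCL2L1, 0 to 2 for MCL1, 0 to 1 for BAX and 0 to 1 for BAK1. Apart from the fewer lines, the cause was not tested. No paired analysis was possible because the lines form a single group. Without known depths, counting error could not be separated from differences between lines.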
